A study of Mus musculus with 8 samples.

Results

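The 35 genes described here serve protein folding, quality control and export in the endoplasmic reticulum (ER), the compartment through which every secreted matrix protein passes. They were picked by name for their roles, by a rule that uses no measured value, and all 35 were found among 22007 gene identifiers, each in a single row. RNA had been sequenced from skeletal cells of wild-type mice at postnatal day 10, with 4 libraries from the spine (vertebral skeletal stem cells, vSSC) and 4 from the femur and tibia (long bone skeletal stem cells, lbSSC). Replicates 1 and 2 of each group were male and replicates 3 and 4 female. Both groups had been sorted as CD31-, TER119-, CD45-, Thy-, 6C3-, CD105- and CD200+. All mice were wild type, so no gene was altered and the groups differ by skeletal site alone in their labels. The labels call the samples biological replicates and do not give the number of animals behind each. The tests rest on the spread between these samples, and male and female libraries come from different animals. Within a sex that spread may be technical.

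Proteins bound for secretion enter the ER through the Sec61 channel, are folded by chaperones of the Hsp70 and Hsp90 classes, receive disulfide bonds from protein disulfide isomerases, and leave in COPII-coated vesicles. When unfolded proteins accumulate, the sensors IRE1 (Ern1), PERK (Eif2ak3) and ATF6 start the unfolded protein response, which acts through the transcription factors XBP1, ATF4, CHOP (Ddit3) and cleaved ATF6. Proteins that fail to fold are sent back to the cytosol and degraded, a route called ER-associated degradation. Cells of cartilage and bone make collagen in bulk, and several members of this system are needed for skeletal growth.

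Many genes of this system are switched on through short promoter elements that ATF6 and XBP1 recognise, and these are shown because they tie the chaperones to the response and let their promoters be set beside their values. RefSeq promoters (build GRCm38.p6, 250 bases before to 50 after the start site) were at hand for 29 of the 35 genes. The ER stress element, ERSE, was searched as CCAAT, then any 9 bases, then CCACG, on both strands. It was in the promoters of 9 of the 29 genes, Hspa5, Dnajc3, Creld2, Hsp90b1, Calr, Canx, Pdia6, Syvn1 and Derl3, and in 37 of all 27025 genes with a promoter (0.137%). A second form, ERSE-II, was searched as ATTGG, any base, then CCACG, and was in 2 of the 29 genes, Dnajb11 and Herpud1, against 12 of all genes (0.0444%). Of the windows below, Creld2 and Pdia6 belong to genes that were higher in vSSC, and the others to genes not called. Each is read 5′ to 3′ on the gene's strand, with both parts of the element in capitals. Where the element lies on the opposite strand it reads CGTGG, 9 bases, ATTGG.
Hspa5 (chr2:34772020-34772048, plus strand): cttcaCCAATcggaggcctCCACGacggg
Creld2 (chr15:88819515-88819543, plus strand): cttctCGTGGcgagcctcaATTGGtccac
Pdia6 (chr12:17266486-17266514, plus strand): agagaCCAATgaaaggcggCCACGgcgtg
Hsp90b1 (chr10:86705633-86705661, minus strand): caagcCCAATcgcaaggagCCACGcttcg
Calr (chr8:84847070-84847098, minus strand): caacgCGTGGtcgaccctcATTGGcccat
Canx (chr11:50325795-50325823, minus strand): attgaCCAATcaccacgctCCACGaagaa
Syvn1 (chr19:6046527-6046555, plus strand): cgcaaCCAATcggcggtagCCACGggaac
Herpud1 (chr8:94386372-94386392, plus strand): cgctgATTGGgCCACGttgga

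A match is a run of letters and was not taken as a bound site. The UPR element TGACGTGG was in 2 of the 29 promoters, those of the COPII genes Sec23a and Sec24d, and in 0.714% of all genes. The amino acid response element TGATGNAAT, which ATF4 and CHOP can bind, was in none of the 29 and in 1.08% of all genes.

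Expression was given as FPKM, fragment counts that the authors scaled to the transcript's length and the library's mapped total. FPKM sums lay between 460302 and 571869 per library. Read totals were not used here, and the depth behind each value is unknown. Values below are mean FPKM ± SD (n = 4 per group). A difference is the vSSC mean less the lbSSC mean of log2(FPKM + 1), given ± SE, a scale that shrinks the change of weakly expressed genes. The limma test covered the 10729 genes that reached an FPKM of 1 in 4 or more libraries, and a gene was called where its p-value, adjusted over all of them by the Benjamini-Hochberg method, was under 0.05. Of the sorting markers, CD200 (Cd200) lay between 84.2 and 143 FPKM, CD31 (Pecam1) and Thy1 stayed below 1 and CD105 (Eng) reached 1.17. CD45 (Ptprc) was at 0.331 to 0.949 in vSSC and 0.0250 to 0.0688 in lbSSC. The reverse held for 6C3 (Enpep), at 0.111 to 0.484 in vSSC and 0.709 to 1.76 in lbSSC. TER119 was not among the markers examined, and the globin gene Hbb-bs lay between 2436 and 5482 FPKM. Chondrocyte markers were strong in all 8 libraries, with summed levels of 12973 to 21413 FPKM in vSSC and 14800 to 24357 in lbSSC. Col2a1 made up most of each sum. Of the 6 chondrocyte markers, 2 were called higher in vSSC, Matn3 and Hapln1, and 0 lower. The 83 ribosomal protein genes held 18.3% to 21.4% of the FPKM in vSSC and 15.7% to 18.4% in lbSSC. Because this share differs with the site, a fit that carries it as a covariate, called the ribosomal-share fit below, also removes part of the site difference. Where a call among the 35 genes changes in that fit, both values are given.

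Most of the ER folding genes were not called between the sites. Of 34 tested genes 6 were called higher and 2 lower in vSSC, and 26 were not called. Among all genes tested 23.5% were called, 14.3% higher and 9.17% lower, so the called share of these genes stood at the background. Their median difference was 0.19, beside 0.08 over all genes. The difference was positive in 27 genes and negative in 7. In 13 of the 34 no library of one site lay within the range of the other, against 25.8% of all genes tested. The 35 genes together held 0.990% to 1.02% of the FPKM in vSSC and 0.884% to 0.951% in lbSSC, 2 ranges that do not overlap. Scaling moved these figures. When the libraries were quantile-normalized, the median of the 34 genes was 0.0171, beside 0.0270 over all genes. When each library was set to the same sum, it was 0.0423, beside -0.0439 over all genes. In bulk samples, fewer cells of a type and less RNA per cell cannot be told apart.

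**Figure D1:**
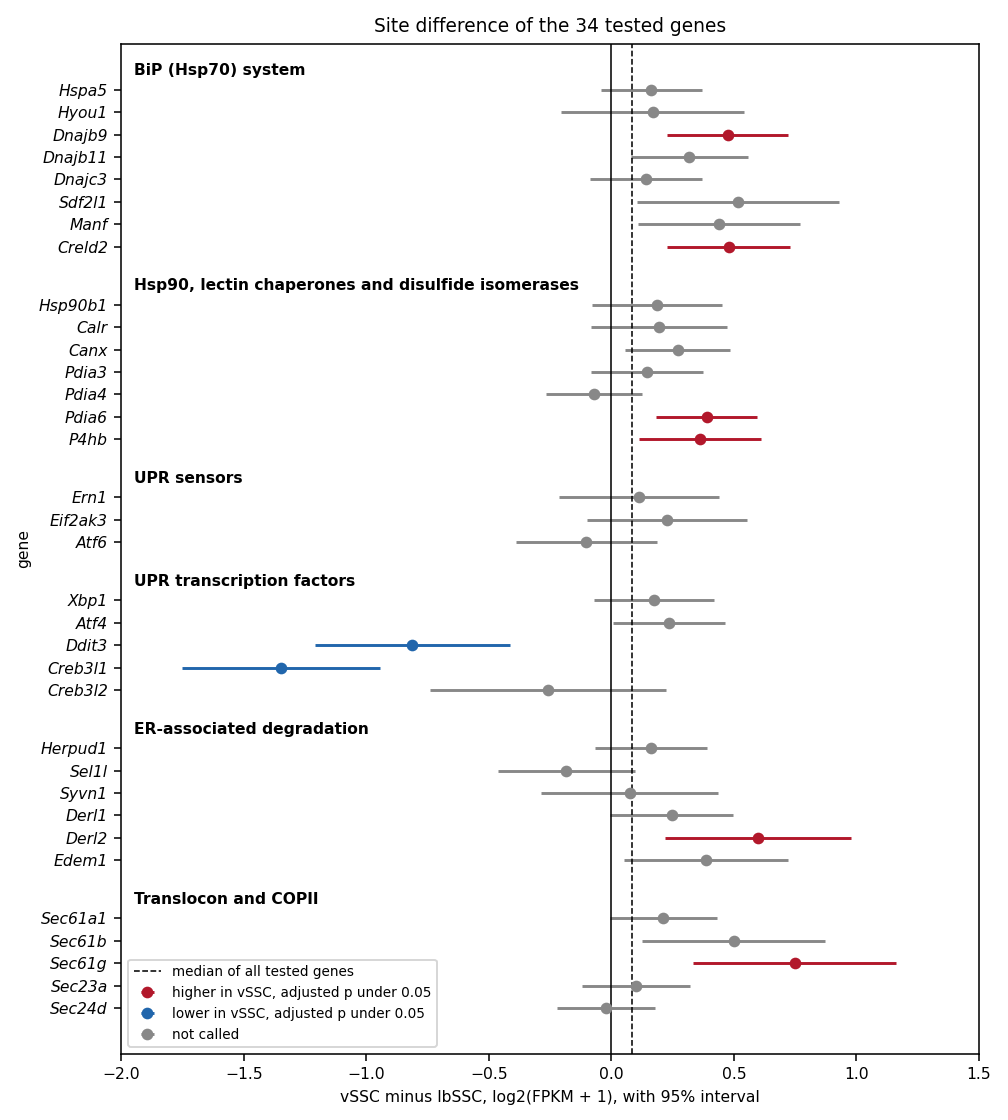
Site difference (vSSC minus lbSSC, log2(FPKM + 1)) of the 34 tested genes in rows grouped by role, points with 95% intervals, coloured by call, the dashed line at the median of all tested genes (0.08). Of the 34 genes, 6 are called higher and 2 lower, and Creb3l1 lies farthest from 0 at -1.35.

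The largest difference was in a transcription factor. Creb3l1 encodes OASIS, an ER membrane protein of the CREB3 family that is cut free to enter the nucleus and is known to activate the type I collagen gene Col1a1 in osteoblasts. The gene lies on the minus strand of chromosome 2 between 91982328 and 92024502 (GRCm38). It was at 19.6, 29.0, 16.9 and 27.2 FPKM in vSSC replicates 1 to 4 and at 46.5, 58.6, 75.0 and 59.9 in lbSSC replicates 1 to 4. The lowest lbSSC library was well above the highest vSSC library. The means were 23.2 ± 5.83 and 60.0 ± 11.7, 2.59-fold higher in lbSSC, with a difference of -1.35 ± 0.18 (limma adjusted p = 0.000439). The call held in all 21 alternative fits, with differences between -1.50 and -0.76. The smallest difference, -0.76 (limma adjusted p = 0.0383), came in the ribosomal-share fit. Without vSSC replicates 1 and 3, the pair with the lowest values, it was -1.05 (limma adjusted p = 0.0043). That fit keeps only vSSC replicates 2 and 4. Of all genes tested 10.2% were called in it and 5.81% in the ribosomal-share fit, against 23.5% in the main fit. A call that ends in either of these fits is therefore not by itself a smaller difference.

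Osteoblast markers differed between the sites in both directions. Their summed level lay between 1130 and 1239 FPKM in vSSC and between 3986 and 5852 in lbSSC, and most of it was Col1a1, the gene of the collagen alpha chain that OASIS is known to activate (723.4 ± 71.5 and 4093 ± 836, difference -2.48 ± 0.15, limma adjusted p = 1.00e-06). Of the 6 osteoblast markers, Bglap, Col1a1 and Dmp1 were lower in vSSC, Sp7 was higher, and Alpl and Ibsp were not called. None was at 0 in any library. The part of osteoblast content in the Creb3l1 difference was not tested.

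Ddit3 encodes CHOP, a factor that PERK signalling induces late in the unfolded protein response and that favours cell death. It lies on the plus strand of chromosome 10 between 127290774 and 127296288. The vSSC libraries held 4.21, 7.40, 4.64 and 7.55 FPKM and the lbSSC libraries 12.1, 9.52, 10.1 and 12.2. All vSSC values were below all lbSSC values, and vSSC replicates 1 and 3 were the lowest. The means of 5.95 ± 1.77 and 10.96 ± 1.35 gave a difference of -0.81 ± 0.18 (limma adjusted p = 0.00933), 1.84-fold higher in lbSSC. The call ended without vSSC replicates 1 and 3 (-0.49, limma adjusted p = 0.0689) and in the ribosomal-share fit (-0.42, limma adjusted p = 0.462). Exons of Ddit3 overlap those of Mars on the opposite strand by 68 bases. The library chemistry does not mark the strand, so reads from that stretch cannot be assigned. Another annotated gene, also named Ddit3, overlaps it on the same strand by 105 bases.

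The other transcription factors were not called. Atf4, translated from preformed mRNA when PERK is active, was at 215 to 235.7 FPKM in vSSC and 160.3 to 204.1 in lbSSC, ranges that do not overlap, with a difference of 0.24 ± 0.10 (limma adjusted p = 0.121). Xbp1, whose mRNA is spliced by IRE1 into the active form, was at 184 ± 19.3 and 163 ± 15.2 (0.17 ± 0.11, limma adjusted p = 0.270). Gene-level FPKM does not separate spliced from unspliced Xbp1. Creb3l2, which encodes BBF2H7 and is known to drive the COPII gene Sec23a in cartilage, ranged from 24.1 to 47.8 in vSSC and 30.8 to 49.9 in lbSSC (-0.26 ± 0.22, limma adjusted p = 0.415). Its vSSC values fell into a low pair, replicates 1 and 3, and a high pair, replicates 2 and 4, and without the low pair its difference was 0.15.

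The sensors were expressed at low levels and none was called. Ern1 was at 2.72 ± 0.479 and 2.43 ± 0.270 FPKM (0.11, 95% interval -0.22 to 0.44). Atf6 was at 3.74 ± 0.303 and 4.10 ± 0.412 (-0.10, 95% interval -0.39 to 0.18). Eif2ak3 was higher than either and was at 16.1, 10.7, 10.7 and 10.6 in vSSC and 8.67, 10.7, 10.3 and 10.3 in lbSSC (0.23, 95% interval -0.10 to 0.55). Only vSSC replicate 1 stood apart in Eif2ak3, and the other 7 libraries lay between 8.67 and 10.7.

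Within the Hsp70 system of the ER lumen, which is built around the chaperone BiP, all 8 genes had a positive difference, 2 were called and 5 had groups that do not overlap. Over all genes 6285 of 10729 differences were positive, 23.5% of genes were called and 25.8% had groups that do not overlap, so the called share of these 8 is near the background. Dnajb9, a J-domain cofactor known to hold IRE1 inactive with BiP, was at 83.8, 77.6, 100.7 and 77.8 FPKM in vSSC and at 58.7, 67.9, 59.2 and 56.9 in lbSSC. Every vSSC library was above every lbSSC library. The difference was 0.47 ± 0.11 (limma adjusted p = 0.0123), a 1.40-fold ratio of means. Creld2, an ER protein with disulfide isomerase activity that is highly induced by folding stress in cartilage, was at 31.5, 31.5, 36.2 and 29.9 in vSSC and at 26.9, 21.9, 21.0 and 21.9 in lbSSC. Here too the groups did not overlap, and the difference was 0.48 ± 0.11 (limma adjusted p = 0.0127), 1.41-fold. Both calls ended without vSSC replicates 1 and 3, at 0.36 for Dnajb9 (limma adjusted p = 0.107) and 0.41 for Creld2 (limma adjusted p = 0.0956). In the ribosomal-share fit they were 0.27 (limma adjusted p = 0.382) and 0.26 (limma adjusted p = 0.416).

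BiP itself, encoded by Hspa5 and a common readout of ER folding load, was not called. It was at 337.3, 341.2, 369.1 and 354.6 FPKM in vSSC and at 332.0, 320.6, 311.9 and 288.5 in lbSSC. The vSSC values all lay above the lbSSC values, although the gap between the nearest libraries was small, with a difference of 0.16 ± 0.09 (95% interval -0.04 to 0.37, limma adjusted p = 0.226). After quantile normalization it was -0.12. Manf, a secreted factor that is retained with BiP, was at 186 ± 25.9 and 138 ± 27.0 (0.44 ± 0.15, limma adjusted p = 0.0552). Dnajb11, a cofactor that delivers clients to BiP, was at 49.3 ± 4.53 and 39.3 ± 3.67 (0.32 ± 0.11, limma adjusted p = 0.0543). Sdf2l1, which works with Dnajb11, had the largest difference of the group, 0.52 ± 0.19, and overlapping groups, 10.4 to 18.7 and 8.09 to 11.95 FPKM (limma adjusted p = 0.0670). These 3 genes passed the threshold in some alternatives and not in others. Hyou1, the exchange factor for BiP, was at 15.4 ± 3.92 and 13.3 ± 1.71 (limma adjusted p = 0.495), and Dnajc3, which blocks PERK, at 34.4 ± 1.95 and 31.1 ± 2.85 (limma adjusted p = 0.341).

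Among the Hsp90, lectin chaperone and disulfide isomerase genes, 2 of 7 were called, both disulfide isomerases. Pdia6 was at 251.3, 263.9, 280.4 and 260.7 FPKM in vSSC and at 203.9, 217.2, 198.7 and 186.2 in lbSSC, with a spread within each group far smaller than the step between them. Its difference was 0.39 ± 0.09 (limma adjusted p = 0.0134), 1.31-fold. It missed the threshold after quantile normalization (0.19, limma adjusted p = 0.0953), without vSSC replicates 1 and 3 (0.38, limma adjusted p = 0.0851) and in the ribosomal-share fit (0.30, limma adjusted p = 0.166). Exons of Pdia6 overlap those of Atp6v1c2 on the opposite strand by 50 bases.

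P4hb, which serves both as a disulfide isomerase and as the beta subunit of the collagen prolyl 4-hydroxylase, was the most abundant of the 35 genes. It was at 1318, 1273, 1408 and 1194 FPKM in vSSC and at 1082, 1087, 987.8 and 889.7 in lbSSC, and alone held 21.9% to 24.4% of the summed FPKM of the 35 genes in a library. The groups did not overlap and the difference was 0.36 ± 0.11 (limma adjusted p = 0.0395), 1.28-fold. This call was lost in 11 of 21 alternatives. They include leaving out vSSC replicate 1, 2 or 3 or lbSSC replicate 3 or 4 (limma adjusted p between 0.0802 and 0.107) and quantile normalization (0.08, limma adjusted p = 0.443). Without both vSSC replicates 1 and 3 the difference was 0.29 (limma adjusted p = 0.259), and in the ribosomal-share fit it was 0.13 (limma adjusted p = 0.583).

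The remaining 5 genes of this group were not called. Canx, the membrane lectin calnexin, was at 94.9 ± 7.56 and 78.4 ± 3.92 without overlap (0.27 ± 0.10, limma adjusted p = 0.0646). Its soluble relative Calr, calreticulin, was at 491 ± 24.2 and 434 ± 75.3 (0.19 ± 0.13, limma adjusted p = 0.284), and lbSSC replicate 2 held the highest value of all 8 libraries. Pdia3, the isomerase that both lectins recruit, was at 384 ± 20.6 and 348 ± 33.8 (limma adjusted p = 0.331). Hsp90b1, the Hsp90 of the ER, was at 132 ± 14.4 and 116 ± 14.2 (limma adjusted p = 0.281). Pdia4 was at 64.1 ± 3.35 and 67.3 ± 0.654 (-0.07, 95% interval -0.27 to 0.13).

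**Figure D2:**
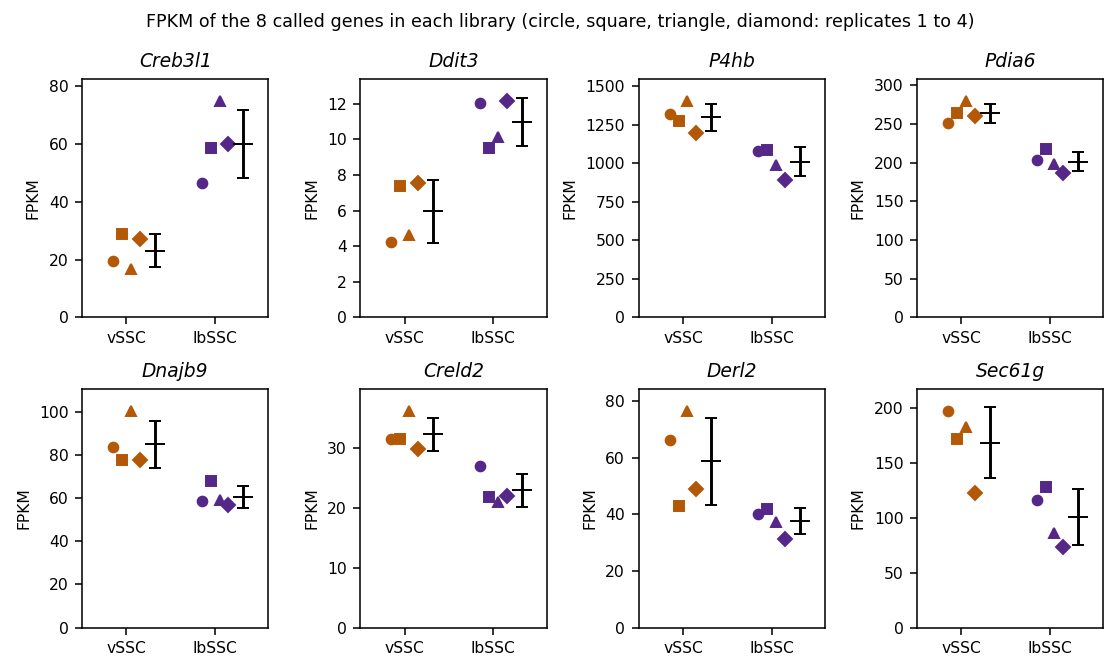
FPKM (linear axis from 0) of the 8 called genes in each library, with marker shapes for replicates 1 to 4 and a bar for the mean ± SD of each group. Creb3l1 and Ddit3 are higher in all 4 lbSSC libraries, and among the 6 genes higher in vSSC only Sec61g has overlapping groups.

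Genes of ER-associated degradation included 1 call among 6 tested. Derl2, a derlin of the channel through which misfolded proteins leave the ER, was at 66.0, 42.9, 76.5 and 49.0 FPKM in vSSC and at 40.2, 41.7, 37.2 and 31.2 in lbSSC. Replicates 1 and 3 of vSSC were far above the rest, and replicate 2 was only just above the highest lbSSC library. The difference was 0.60 ± 0.17 (limma adjusted p = 0.0289), 1.56-fold. The call was lost in 9 of 21 alternatives. It ended when vSSC replicate 1 or 3 or lbSSC replicate 3 or 4 was left out (limma adjusted p between 0.0678 and 0.0832). The same held without the expression filter, with quantile normalization and with weights per library (limma adjusted p between 0.0678 and 0.0700). Without vSSC replicates 1 and 3 the difference was 0.29 (limma adjusted p = 0.256). In the ribosomal-share fit it was 0.09 (limma adjusted p = 0.877). Exons of Derl2 overlap those of Mis12 on the opposite strand by 231 bases.

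Neither of its relatives was called. Derl1 was at 109 ± 10.9 and 91.7 ± 10.2 (0.25 ± 0.11, limma adjusted p = 0.136). Derl3 was too low to test, at 1.47, 1.05, 0.623 and 1.11 in vSSC and 0.198, 0.825, 0.401 and 0.724 in lbSSC. Edem1, a lectin that marks misfolded glycoproteins, was at 21.9 ± 2.71 and 16.7 ± 3.68 with overlapping groups (0.39 ± 0.15, limma adjusted p = 0.0878). The ubiquitin ligase Syvn1 and its partner Sel1l stood at 19.2 ± 3.59 and 18.2 ± 3.54 (0.08 ± 0.17) and at 21.1 ± 3.34 and 23.9 ± 1.63 (-0.18 ± 0.13). Herpud1, which joins the ligase complex and is strongly induced by ER stress, was at 168 ± 13.3 and 150.0 ± 13.9 (0.16, 95% interval -0.07 to 0.39). Exons on the opposite strand also overlap Syvn1 (Mrpl49, 91 bases), Hsp90b1 (the pseudogene 1810014B01Rik, 415 bases) and Pdia3 (Catsper2, 18 bases). Manf is overlapped by Dcaf1 (146 bases) and 4930524O07Rik (166 bases). The largest such overlaps were in Sec61a1 (Gm44170, 549 bases), Eif2ak3 (Gm43292, 485 bases) and Sec23a (Gm17529, 431 bases).

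In the Sec61 channel only the gamma subunit was called. Sec61g, the gamma subunit, was at 197.9, 171.7, 182.6 and 123.2 FPKM in vSSC and at 116.0, 128.0, 86.6 and 73.3 in lbSSC. Replicate 4 of vSSC lay below replicate 2 of lbSSC, so the groups overlap. The difference of 0.75 ± 0.19 was the largest positive value among the 34 genes (limma adjusted p = 0.0167), 1.67-fold. It missed the threshold without vSSC replicate 1 (limma adjusted p = 0.0510), without lbSSC replicate 3 (limma adjusted p = 0.0526) and without the expression filter (limma adjusted p = 0.0504). The call also ended without vSSC replicates 1 and 3 (0.56, limma adjusted p = 0.164), and the difference was 0.09 in the ribosomal-share fit (limma adjusted p = 0.849). Sec61b, the beta subunit, was at 446.2 to 667.1 in vSSC and 338.7 to 545.6 in lbSSC (0.50 ± 0.17, limma adjusted p = 0.0535), and it was called in 5 alternatives. The pore subunit Sec61a1 was at 228 ± 4.71 and 198 ± 19.2 (0.21 ± 0.10, limma adjusted p = 0.142). The differences between the subunits were not tested against each other.

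Neither COPII coat gene was called. Sec23a, whose loss is known to disturb collagen export in the skull, was at 71.7 ± 2.097 and 67.1 ± 6.53 FPKM (0.10, 95% interval -0.12 to 0.32). Sec24d, the cargo adaptor of the same coat, was at 71.1 ± 3.02 and 72.2 ± 3.21 (-0.02, 95% interval -0.22 to 0.18).

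**Figure D3:**
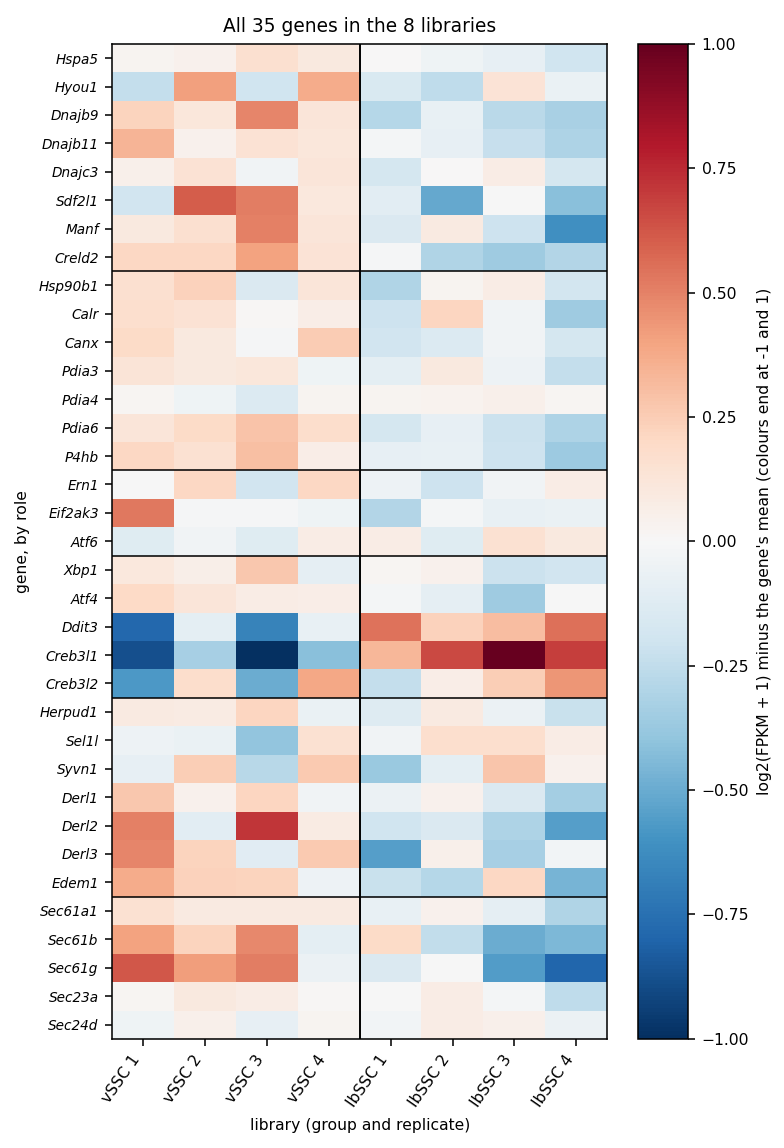
All 35 genes (rows, by role) in the 8 libraries (columns), as log2(FPKM + 1) minus the gene's mean over the libraries, with colours that end at -1 and 1. Creb3l1 and Ddit3 run opposite to most rows, and vSSC replicates 1 and 3 are the lowest of the vSSC libraries for Creb3l2, Hyou1 and Syvn1.

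The vSSC libraries fell into pairs, both among these genes and among all genes tested. Replicates 1 and 3 were both above replicates 2 and 4 in 12 of the 34 genes (35.3%), against 30.7% of all genes. Derl2, Dnajb9, P4hb, Sec61b and Sec61g were among these 12. Replicates 1 and 3 were both below in 9 genes (26.5%), among them Creb3l1, Ddit3, Creb3l2, Hyou1 and Atf6, against 19.9% of all genes. The ribosomal protein share was 21.2% and 21.4% in replicates 1 and 3 and 19.5% and 18.3% in replicates 2 and 4. Each pair holds a male and a female library. The part of this share in the site differences was not tested beyond the fits given beside each gene.

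The promoter element was found in called and uncalled genes alike. Of the 9 genes with an ERSE, Creld2 and Pdia6 were called higher, Derl3 was not tested and 6 were not called, among them Hspa5 with the window printed above. Of the 7 called genes with a promoter searched, 5 had no such match: Dnajb9, P4hb, Ddit3, Derl2 and Sec61g. The promoter of Creb3l1 was not analysed here. Over all genes with an ERSE, 14 were tested, 3 were higher, 1 was lower and the median difference was 0.17. Over all genes tested 14.3% were higher and 9.17% lower, with a median of 0.08. The 14 include every tested gene of the 9, and Creld2 and Pdia6 are among the 3 higher. These figures therefore repeat theirs in large part.

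Neighbouring gene lists are described by counts, to be read beside all genes tested, where 14.3% were higher and 9.17% lower in the main fit. The lists were not tested against each other. The background changed with the fit as well. Of all genes 1534 were higher in the main fit, 865 without vSSC replicate 1 and 839 without lbSSC replicate 4. Without both vSSC replicates 1 and 3 it was 503 genes, and in the ribosomal-share fit 237. Of 29 named list genes that were called, 23 lost their call in the ribosomal-share fit and 18 without vSSC replicates 1 and 3. The genes that kept it in the ribosomal-share fit were Sec11c, Cryab, Matn1, Col1a1, Col1a2 and Matn3. The list of translocon, signal peptidase and N-glycan transfer genes had 12 of 30 tested genes higher and none lower, with a median of 0.31. Its leading gene, Sec11c, a catalytic subunit of the signal peptidase, was at 78.2, 57.8, 71.0 and 49.7 FPKM in vSSC and at 36.5, 31.4, 23.6 and 22.8 in lbSSC. The groups did not overlap and the difference was 1.15 ± 0.18 (limma adjusted p = 0.00102). The call of Sec11c held in all 21 alternatives, with differences between 0.50 and 1.27. Srprb, the beta subunit of the receptor that docks ribosomes, followed at 68.5 ± 5.22 and 48.0 ± 5.02 (0.51 ± 0.11, limma adjusted p = 0.00726), with the signal peptidase subunits Spcs2 (0.52 ± 0.13, limma adjusted p = 0.0153) and Spcs3 (0.52 ± 0.14, limma adjusted p = 0.0196). The count fell to 3 when vSSC replicate 1 was left out, to 8 and 4 for vSSC replicates 2 and 3, and to 4 and 3 for lbSSC replicates 3 and 4. It was 5 after quantile normalization and 9 with libraries set to the same sum, each with 1 gene called lower. In the ribosomal-share fit it was 1.

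Other genes of ER folding, degradation and export included calls in 1 direction in the main fit, higher in vSSC. Their numbers were near the background of 14.3% for folding and export. In other ER folding 4 of 25 were higher, with a median of 0.17: Mogs, which trims the first glucose from N-glycans (45.6 ± 3.67 and 31.8 ± 3.37), the prolyl isomerases Fkbp2 (51.0 ± 6.32 and 31.7 ± 7.15) and Ppib (1200 ± 144 and 912.0 ± 98.8), and Erp29 (232.8 ± 13.6 and 185.9 ± 17.9). In other ER-associated degradation 5 of 20 were higher, with a median of 0.23, led by the conjugating enzyme Ube2g2 (0.45 ± 0.12), Ufd1 of the extraction machinery (0.39 ± 0.11), Selenos (0.37 ± 0.10) and the ligase Rnf139 (0.42 ± 0.14). In ER exit and retrieval 3 of 24 were higher, with a median of 0.15: Sec23b, the paralogue of Sec23a (0.40 ± 0.11), the small GTPase Arf4 (0.43 ± 0.13) and the retrieval receptor Kdelr3 (0.38 ± 0.12), while Sar1b was not called (0.44 ± 0.17, limma adjusted p = 0.0807). These counts changed when single libraries were left out. Without vSSC replicate 1, 2 or 3 or lbSSC replicate 3 or 4 the folding list had 2 each time. The degradation list had 0 to 2 and the exit list 0 or 1. In the same fits 839 to 1083 of all genes were higher, against 1534 in the main fit. Without lbSSC replicate 2 the folding count was also 2, and without lbSSC replicate 1 the exit count was 5. In the ribosomal-share fit each was 0, and 1 folding gene was called lower. Quantile normalization gave 1 higher and 2 lower for folding, 0 and 0 for degradation, and 0 and 1 for exit. Setting libraries to the same sum gave 2 and 1 for folding, 1 and 0 for degradation, and 1 and 1 for exit. Erp29, Ppib, Rnf139, Arf4 and Kdelr3 lost their calls in between 11 and 14 of the 21 alternatives.

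Targets of ATF4 and CHOP split in both directions, with 5 of 21 higher, 3 lower and a median of -0.05. Ppp1r15a encodes GADD34, which restores translation after PERK signalling and is a known CHOP target. It was at 13.5, 12.1, 12.5 and 26.1 FPKM in vSSC and at 40.5, 40.5, 34.5 and 30.2 in lbSSC, without overlap, although vSSC replicate 4 came close to lbSSC replicate 4 (-1.20 ± 0.21, limma adjusted p = 0.00257). Cebpb, the C/EBP factor that dimerises with CHOP, was at 19.2 ± 8.74 and 42.5 ± 11.8 (-1.17 ± 0.28, limma adjusted p = 0.0122), and Atf5 was the third gene lower in vSSC. The higher genes included the mitochondrial folate enzymes Shmt2 (56.3 ± 5.21 and 36.8 ± 4.04, difference 0.60 ± 0.11, limma adjusted p = 0.00343) and Mthfd2 (44.3 ± 2.52 and 31.8 ± 3.89, difference 0.47 ± 0.11, limma adjusted p = 0.0124), with Psph, Cebpg and Ddit4. In the ribosomal-share fit no gene of this list was called, and without vSSC replicates 1 and 3 the counts were 2 higher and 1 lower. Single libraries changed them too: leaving out vSSC replicate 1 or lbSSC replicate 3 or 4 gave 2 higher and 2 lower each, and vSSC replicate 2 or 3 gave 3 and 2. Ppp1r15a and Shmt2 lost their calls in the ribosomal-share fit alone.

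Chaperones outside the ER gave 9 of 22 tested genes higher, 3 lower and a median of 0.30. The small heat shock genes Cryab (9.19 ± 1.59 and 22.9 ± 4.35, difference -1.22 ± 0.16, limma adjusted p = 0.000279) and Hspb1 (5.21 ± 0.514 and 11.4 ± 2.58, difference -0.97 ± 0.16, limma adjusted p = 0.00136) were lower in vSSC, as was Dnajb4. Cct5 of the cytosolic chaperonin (122.1 ± 8.15 and 84.2 ± 12.3) and the mitochondrial Hspe1 (222.3 ± 21.6 and 148.0 ± 24.9) led the higher genes. Cryab was called in all 21 alternatives. Over all genes tested 14.3% were higher and 9.17% lower. In the ribosomal-share fit 0 genes of this list were higher and 1 was lower. There Cct5 was at 0.26 (limma adjusted p = 0.372), Hspe1 at 0.20 (limma adjusted p = 0.476) and Hspb1 at -0.93 (limma adjusted p = 0.0601). The higher count lay between 3 and 5 when vSSC replicate 1 or 3 or lbSSC replicate 1, 3 or 4 was left out, and was 0 without both vSSC replicates 1 and 3. The difference in call rate between this list and the 34 genes was not tested.

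Relatives of the response factors and the enzymes that release them numbered 10 tested genes, of which 2 were higher. Eif2s1, the alpha subunit of the initiation factor that PERK phosphorylates, was at 34.9 ± 4.64 and 20.8 ± 5.51 (0.75 ± 0.19, limma adjusted p = 0.0156), and Creb3, a relative of Creb3l1, at 59.2 ± 9.48 and 44.7 ± 2.96 with overlapping groups (0.39 ± 0.13, limma adjusted p = 0.0456). Eif2s1 lost its call without vSSC replicates 1 and 3 (0.61, limma adjusted p = 0.139) and in the ribosomal-share fit (0.29, limma adjusted p = 0.647), and Creb3 in 15 of the 21 alternatives. Atf6b and the cleaving protease gene Mbtps1 were not called, at -0.16 ± 0.10 and -0.14 ± 0.09. Of the other relatives of Creb3l1 in this list, Creb3l4 was not called (-0.30 ± 0.25). Creb3l3 was too low to test, at 0.0698 to 0.299 FPKM in vSSC and 0.853 to 1.84 in lbSSC.

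The cargo that passes through this machinery was called in both directions. Of 20 secreted skeletal matrix genes 4 were higher and 8 lower in vSSC, with a median of -0.26 and a range from -3.61 to 1.98. Col1a2, the partner chain of Col1a1, was at 1771 ± 156 and 5939 ± 831 (-1.74 ± 0.14, limma adjusted p = 1.07e-05), and the cartilage matrix gene Matn1 at 33.4 ± 9.63 and 408.7 ± 67.2 (-3.61 ± 0.20, limma adjusted p = 5.80e-07). Matn3 went the other way, at 1506 ± 88.6 and 541.5 ± 85.9 (1.49 ± 0.13, limma adjusted p = 1.74e-05). These 3 genes and Col1a1 were called in all 21 alternatives. Among the 34 folding genes the range ran from -1.35 to 0.75.

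**Figure D4:**
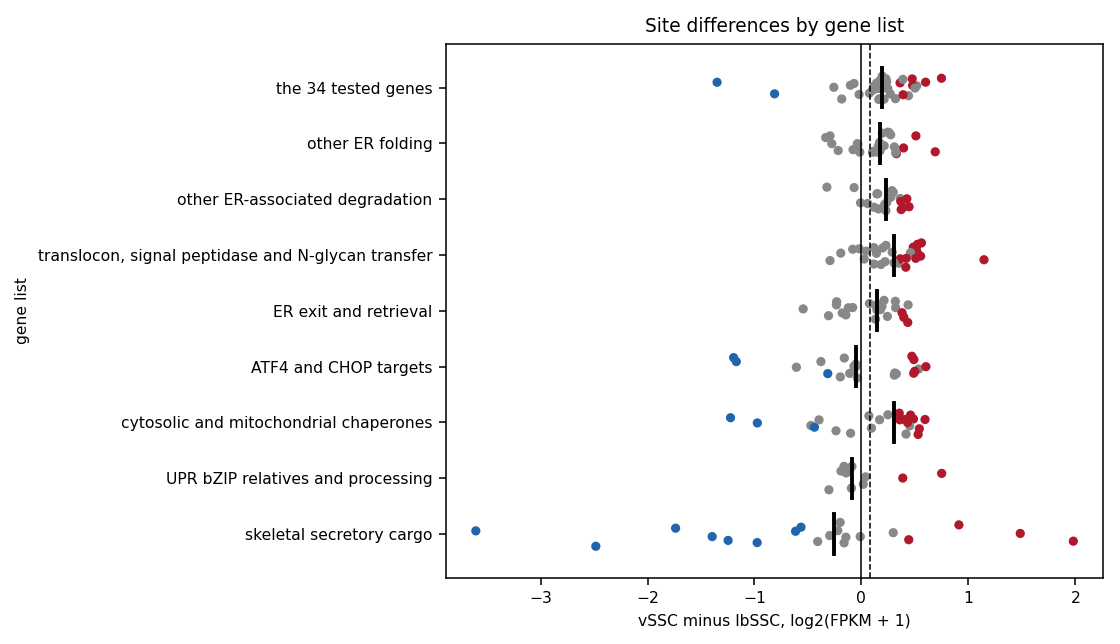
Site differences (vSSC minus lbSSC, log2(FPKM + 1)) of single genes in the 34 tested genes and the 8 neighbouring lists, with red points called higher, blue points called lower, grey points not called, thick bars at list medians and the dashed line at the median of all genes. The translocon list sits farthest right with a median of 0.31, and the cargo list spreads from -3.61 to 1.98.

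Markers of other cell types also differed between the sites. Plasma cells, unlike resting B cells, have a large ER. Markers of plasma and B cells summed to 11.3 to 16.0 FPKM in vSSC and 1.09 to 7.83 in lbSSC. Of 4 tested genes 3 were higher in vSSC: Cd79a, Cd79b and Pou2af1. Jchain was at 0 in 5 libraries and Tnfrsf17 at 0 in 7. Mzb1 had overlapping groups, 0.604 to 1.84 FPKM in vSSC and 0.0650 to 1.42 in lbSSC. Haematopoietic markers summed to 3791 to 5180 and 3964 to 8076, nearly all globin. Against that sum, 3 of 6 tested haematopoietic markers were called higher in vSSC: Lyz2, S100a8 (118 to 192 FPKM and 9.28 to 51.9) and S100a9. Muscle markers summed to 15.2 to 21.9 and 2.57 to 3.46, nearly all of it Tnnt3, with Myh3 and Myod1 at 0 in all 8 libraries. Schwann and neural markers summed to 7.58 to 18.99 and 0.755 to 1.07, and endothelial markers stayed at or below 0.287 in every library. The part of such cells in the differences above was not tested.

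No sex difference was detected in these genes. With site as a covariate, 5 of 10729 genes differed between male and female libraries (0.0466%), and none of the 34 was among them in limma. At an unadjusted p under 0.05 there was 1 of the 34, against 892 of all 10729 genes. This gene was Sec61g, with male minus female 0.45 ± 0.14 (limma adjusted p = 0.502). The interaction of site and sex was called in no gene (0%), with 405 of all genes and 0 of the 34 at an unadjusted p under 0.05. With 2 libraries per sex and site, small sex differences could not be detected.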

How the data were processed

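Per the labels' protocols, libraries came from SMART-Seq v4 and Nextera XT kits, which keep no strand information. The submitters' processing notes name bcl2fastq 2.19, STAR 2.5.2, Cufflinks 2.1.1 and build GRCm38, with other settings not given in the sources used here. FPKM for each protein-coding gene were deposited by the authors, and the sums of these values differ between libraries.

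From these values log2(FPKM + 1) was computed in R 4.3.3 and fitted with limma 3.58.1 (empirical Bayes, variance trend, all 8 libraries, no further term). Sex was fitted beside site. The procedure was tested on simulated data. The 21 alternatives covered the pseudocount, filter, scaling, variance model, sex, replicate number, ribosomal protein share and left-out libraries. The rule for the 35 genes uses names only, but the genes, lists and alternatives were chosen with earlier results of these data known. All 35 genes are accounted for, and up to 4 tested genes with the smallest p were named per neighbouring list. Names given beyond those, called or not, were chosen after their values were seen. Of the listed symbols 3 matched no row. Sequences are from RefSeq. Protein features were not analysed here.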

Additional observations from a re-analysis of the deposited data

Results flagged for a closer look

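In 4 of 70 groups of 4 libraries (35 genes at 2 sites), a single library stood far from the other 3 by Dixon's test. Chance alone flags about 1 in 20 groups. Manf was at 224.1 FPKM in vSSC replicate 3, where the others lay between 168.9 and 177.0. Creld2 was at 26.9 FPKM in lbSSC replicate 1, with the others between 21.0 and 21.9, and this library narrows the called difference of that gene. Eif2ak3 was at 16.1 FPKM in vSSC replicate 1, with the others between 10.6 and 10.7. Sec61a1 was at 235.4 FPKM in vSSC replicate 1, with the others between 225.4 and 226.4, a gap that is small beside its level.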

How the results depend on the processing

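Of the 8 called genes only Creb3l1 kept its call in all 21 alternatives, and none of the 8 changed sign. Of the 26 genes not called, 6 were called in some alternative (Dnajb11, Sdf2l1, Manf, Canx, Edem1 and Sec61b) and 15 changed sign in some alternative without a call. The median of the 34 genes was 0.11 with median-of-ratios factors and 0.0171 with quantile normalization. It was 0.0423 with libraries set to the same sum and 0.10 in the ribosomal-share fit. The medians over all genes tested were 0.0110, 0.0270, -0.0439 and 0.000496 in the same order. The number called higher was 3 with quantile normalization, 0 without vSSC replicates 1 and 3, and 0 in the ribosomal-share fit. In each of these last 2 fits 1 gene, Creb3l1, was called lower, and 1095 and 623 of all genes were called. Leaving out single libraries gave 1534 to 2991 calls over all genes. Setting libraries to the same sum shifted the median of all genes by -0.13. Of all calls, 60.9% were higher in vSSC on the deposited scale, 51.9% with median-of-ratios factors, 49.4% with quantile normalization and 42.4% with the same sum.

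Deviations of same-numbered libraries correlated at 0.257, -0.0878, -0.0639 and 0.435. Those of differently numbered libraries correlated at -0.362 to 0.206. Whether the replicate numbers pair the libraries was not tested. With the replicate number as a block, 11 of the 34 genes were called higher, 2 lower and 3194 of all genes were called.

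Signs changed as follows, in genes not called either way. With quantile normalization Hspa5 was -0.12, Dnajc3 -0.0269, Hsp90b1 -0.0642, Calr -0.0262, Pdia3 -0.14, Xbp1 -0.0186, Herpud1 -0.0548, Syvn1 -0.0428 and Sec23a -0.0803. With the same sum Dnajc3 was -0.00275, Pdia3 -0.00396, Syvn1 -0.0660 and Sec23a -0.0467. With median-of-ratios factors Syvn1 was -0.00512. In the ribosomal-share fit Pdia3 was -0.00723, Atf6 0.0716, Xbp1 -0.12, Creb3l2 0.55, Herpud1 -0.00729, Sel1l 0.0650, Derl1 -0.0441, Sec61b -0.0810, Sec23a -0.00826, Sec24d 0.0286 and Sar1b of the exit list -0.13. Without vSSC replicates 1 and 3 Creb3l2 was 0.15 and Sec24d 0.0283. Leaving out single libraries gave -0.0355 to 0.18 for Syvn1 and -0.0448 to 0.00114 for Sec24d. The cause of these changes was not tested. Depth is unknown, and 4 libraries per site limit the precision.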
